A study of Arabidopsis thaliana with 6 samples.

Results

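SAUR19 to SAUR24 are 6 small genes that lie within 21216 bases of Arabidopsis thaliana chromosome 5, 6 of the 33557 genes in the table analysed. They were taken by identifier: SAUR19 (AT5G18010), SAUR20 (AT5G18020), SAUR21 (AT5G18030), SAUR22 (AT5G18050), SAUR23 (AT5G18060) and SAUR24 (AT5G18080). The study compared whole seedlings of the phyA-1 mutant with wild-type seedlings, all of the accession Landsberg erecta, which carries a mutant ERECTA receptor kinase gene in both genotypes. All seedlings had 4 days of darkness and then 3 hours of far-red light, and the labels give 3 independent biological replicates per genotype. The PHYA gene, mutated in phyA-1, encodes phytochrome A, through which dark-grown seedlings sense continuous far-red light. No seedlings kept in darkness are among the samples, so a difference present before the light cannot be told apart from a response to it.

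SAUR genes, named for small auxin up RNA, encode short proteins, and many of their transcripts appear within minutes of auxin treatment and decay quickly. In Arabidopsis, proteins of the SAUR19 group bind and inhibit PP2C.D phosphatases. These phosphatases remove the activating phosphate from plasma membrane proton pumps, so a SAUR protein keeps the pumps active, the cell wall is acidified and the cell expands. The group is known for promoting hypocotyl elongation, and bHLH factors of the PIF family and ARF auxin response factors are known to act on genes of this kind.

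The libraries were polyadenylated RNA, and every level below is FPKM, fragments scaled by transcript length and by the number of mapped fragments, as 1 value that the authors pooled over the replicates of a genotype. No value carries an SD for that reason, and depth per library is unknown. A gene was called when its q-value in the authors' deposited table was 0.05 or below. Ratios are log2((FPKM + 1) ratio), phyA-1 over wild type, so that a positive value is higher in phyA-1. Over the 22892 genes the authors tested, the median ratio was 0.05 and the median level 8.86 FPKM. PHYA itself had 16.0 FPKM in phyA-1 and 167 FPKM in wild type.

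The 6 genes are copies of one another. Each has 1 exon and a coding sequence of 267 to 276 bases. Over the 15 pairs, identity of the coding sequences ran from 87.7% for SAUR20 and SAUR22 to 95.2% for SAUR19 and SAUR24, with a median of 91.2%. SAUR19, SAUR20 and SAUR22 lie on the minus strand, and SAUR21, SAUR23 and SAUR24 on the plus strand. In the 500 bases before the start codon identity was lower, from 59.7% for SAUR20 and SAUR23 to 79.5% for SAUR20 and SAUR24, and the 5 pairs with SAUR23 reached at most 62.02%.

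The promoters of 4 members are printed because the genes moved in the same direction. These 4 were taken because they have the shortest annotated distance from transcript start to start codon, 97 to 157 bases. As that distance differs, the windows are offset from one another relative to the start codon. Each is the 250 bases before the annotated transcript start, 5′ to 3′ on the gene's own strand, from the RefSeq genome TAIR10.1 of the Columbia accession, at chr5:5963406-5963655 for SAUR19, chr5:5966678-5966927 for SAUR20, chr5:5975088-5975337 for SAUR22 and chr5:5983433-5983682 for SAUR24. Capitals mark the PBE-box CACATG, a hexamer that PIF factors can bind, and the auxin response element TGTCTC, which ARF factors can bind, either as given or as the reverse complement (CATGTG and GAGACA). The seedlings were Landsberg erecta, whose bases may differ from these.
SAUR19: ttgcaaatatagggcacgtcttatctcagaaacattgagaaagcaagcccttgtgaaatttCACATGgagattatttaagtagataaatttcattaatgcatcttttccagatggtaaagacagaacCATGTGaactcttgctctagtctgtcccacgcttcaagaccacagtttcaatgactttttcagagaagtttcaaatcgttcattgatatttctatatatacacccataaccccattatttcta
SAUR20: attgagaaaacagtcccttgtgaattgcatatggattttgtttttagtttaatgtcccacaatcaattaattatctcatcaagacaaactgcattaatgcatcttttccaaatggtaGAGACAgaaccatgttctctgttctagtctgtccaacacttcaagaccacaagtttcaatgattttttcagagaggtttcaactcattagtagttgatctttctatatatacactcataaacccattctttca
SAUR22: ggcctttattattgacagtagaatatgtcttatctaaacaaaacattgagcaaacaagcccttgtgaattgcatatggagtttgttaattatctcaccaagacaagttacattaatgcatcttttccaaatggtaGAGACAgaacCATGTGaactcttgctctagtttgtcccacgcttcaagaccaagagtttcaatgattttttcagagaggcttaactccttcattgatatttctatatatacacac
SAUR24: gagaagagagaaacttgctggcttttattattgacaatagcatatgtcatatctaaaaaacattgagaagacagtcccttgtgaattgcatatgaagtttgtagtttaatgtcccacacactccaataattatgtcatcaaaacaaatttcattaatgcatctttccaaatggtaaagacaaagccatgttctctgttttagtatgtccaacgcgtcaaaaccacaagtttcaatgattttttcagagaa

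For all 6 members the same 500 bases before the start codon were searched on both strands. The PBE-box stood in 4 of 6 members, SAUR19, SAUR21, SAUR22 and SAUR23, against 17.9% of the 27443 protein-coding genes with such a window and 35 of 74 other SAUR genes. In these 4 genes a copy began 204 to 229 bases before the start codon, which in SAUR23 is inside the annotated leader of 250 bases, and SAUR19 had another at 289. The element TGTCTC stood in SAUR20 and SAUR22, against 6860 of the 27443 windows and 20 of 74 other SAUR genes. In SAUR22 it ended a few bases before the PBE-box, without overlap. None of the 6 windows held the G-box CACGTG (9.17% of all windows), the auxin element TGTCGG (7.98%) or the brassinosteroid elements CGTGTG (9.89%) and CGTGCG (2.80%). In the 74 other SAUR genes the G-box stood in 0 windows, TGTCGG in 4, CGTGTG in 5 and CGTGCG in 3. SAUR20 and SAUR24, which had no PBE-box match, had ratios of 0.32 and 0.54, and the 4 genes with a match had 0.36 to 0.50.

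All 6 genes stood higher in phyA-1 than in wild type, and 4 passed the authors' test. Called higher were SAUR19, SAUR21, SAUR23 and SAUR24, by 1.41-fold to 1.46-fold. SAUR20 and SAUR22, with ratios of FPKM of 1.26 and 1.29, were not called. The background for 4 of 6 is that 8.61% of all tested genes were called higher, or 10.5% of those with a mean of at least 5 FPKM. None of the 6 was called lower, as 8.54% of all tested genes were. The same 4 genes pass a Benjamini-Hochberg adjustment of the deposited p-values, by which 7.49% of all tested genes are higher. At a q-value of 0.01 SAUR24 alone of the 6 passes, where 5% of all tested genes are higher. Of all tested genes, 13507 of 22892 had a ratio above 0. The members share sequence and were measured in the same libraries, so they are not 6 independent readings. Seedlings were taken whole, and more cells of an expressing type cannot be told apart from more RNA per cell.

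SAUR24 (chromosome 5, 5983840 to 5984112 in the table, TAIR10) had the highest level, 276 FPKM in phyA-1 and 189 FPKM in wild type. Its ratio of 0.54 was the largest of the 6, with p = 0.0009 and q = 0.00586 in the authors' deposited table. SAUR24 made up 48.5% of the summed FPKM of the 6 genes in phyA-1 and 46.6% in wild type. The sum was 569 FPKM in phyA-1 and 406 FPKM in wild type, a 1.40-fold difference, and without SAUR24 it was 293 FPKM in phyA-1 and 216 FPKM in wild type, a 1.35-fold difference. The sum of the other 5 genes was thus also higher in phyA-1. Fragments of SAUR24 may have been counted at other copies, so that sum need not be free of SAUR24.

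The level of SAUR24 is less comparable with the others than its ratio is. Its locus in the table is 273 bases long and ends exactly with the coding sequence, while the loci of the other 5 members hold 215 to 270 bases outside it. RefSeq gives the SAUR24 transcript 626 bases. SAUR24 stood 3.61-fold above SAUR22, the next highest gene, in phyA-1, and 3.20-fold above it in wild type. Multiplied by locus length, the same distance was 2.02-fold in phyA-1 and 1.79-fold in wild type. That undoes the scaling per kilobase only if the full locus length was used for it, which the sources used here do not give. The order of the 2 genes was the same on these 2 scales, and the order by fragments counted is unknown.

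SAUR23 (5975954 to 5976496) had 68.6 FPKM in phyA-1 and 48.4 FPKM in wild type. Its ratio was 0.50, with q = 0.0101 in the authors' deposited table. SAUR21 (5968435 to 5968938) had 53.6 FPKM in phyA-1 and 37.7 FPKM in wild type. Its ratio was also 0.50, with q = 0.0163 in the authors' deposited table. SAUR19 (5962897 to 5963405), the member that gives the group its name and the one with the lowest level, had 44.9 FPKM in phyA-1 and 31.8 FPKM in wild type. Its ratio was 0.48, with q = 0.0243 in the authors' deposited table. These 3 genes thus differed between the genotypes by nearly the same factor at different levels.

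SAUR22 (5974567 to 5975054) had 76.4 FPKM in phyA-1 and 59.2 FPKM in wild type. Its ratio was 0.36, with p = 0.0223 and q = 0.0812 in the authors' deposited table. SAUR20 (5966183 to 5966677) had 49.4 FPKM in phyA-1 and 39.3 FPKM in wild type. Its ratio was 0.32, with p = 0.0520 and q = 0.153 in the authors' deposited table. Whether these 2 genes differ in response from the 4 called ones was not tested, since that needs values per library. At an unadjusted p of 0.05, 5 of the 6 would pass, against 14.1% of all tested genes in that direction.

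By level, the order in phyA-1 was SAUR24, SAUR22, SAUR23, SAUR21, SAUR20 and SAUR19. In wild type the order was the same except that SAUR20 stood above SAUR21, at 39.3 and 37.7 FPKM. Without a spread over replicates, no neighbours in these orders can be called different. The mean levels of the 6 genes lay between the 82.6th and 97.4th percentile of tested genes, and their ratios between the 84.6th and 94.3rd. The plot of levels by gene shows these values.

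**Figure D1:**
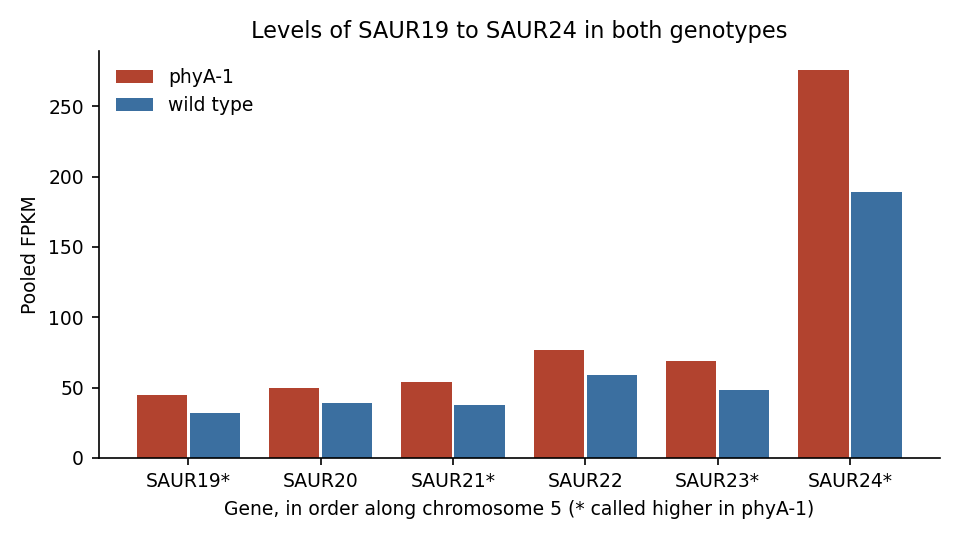
Pooled FPKM of SAUR19 to SAUR24 in phyA-1 (red, left bar) and wild type (blue, right bar), with genes in order along chromosome 5. Bars are the authors' single value per genotype, with no error bar. Each phyA-1 bar is the taller of its pair, and SAUR24, at 276 FPKM in phyA-1 and 189 FPKM in wild type, stands above the other 5 genes, which lie between 44.9 and 76.4 FPKM in phyA-1.

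How far reads can be divided among the copies depends on read length and on what was done with reads that match several places, neither of which the sources used here give. In TAIR10.1, stretches of 36 bases from the SAUR19 locus were found a single time in the genome at 58.2% of starting positions, and those of SAUR24 at 67.2%. SAUR22 had 93.4%, and SAUR23 had 457 of 508 positions. At 50 bases the shares were 76.5% for SAUR19, 85.7% for SAUR24 and 91.9% to 100% for the other 4 genes. At 75 bases all 6 were at or above 96.8%, and at 100 bases every stretch was unique. Only exact matches within the Columbia genome were counted. The reads came from Landsberg erecta, and the number of mismatches allowed in mapping is not known here. With mismatches, more reads could match several copies than these shares give. The longest run of bases shared by 2 coding sequences was 86, between SAUR19 and SAUR21. Single values, SAUR19 and SAUR24 above all, are therefore uncertain if reads were short or mismatches were allowed. SAUR23, which shares 51 of its 508 stretches of 36 bases with another member, had a ratio of 0.50. SAUR22, which shares 3.75%, had one of 0.36.

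**Figure D2:**
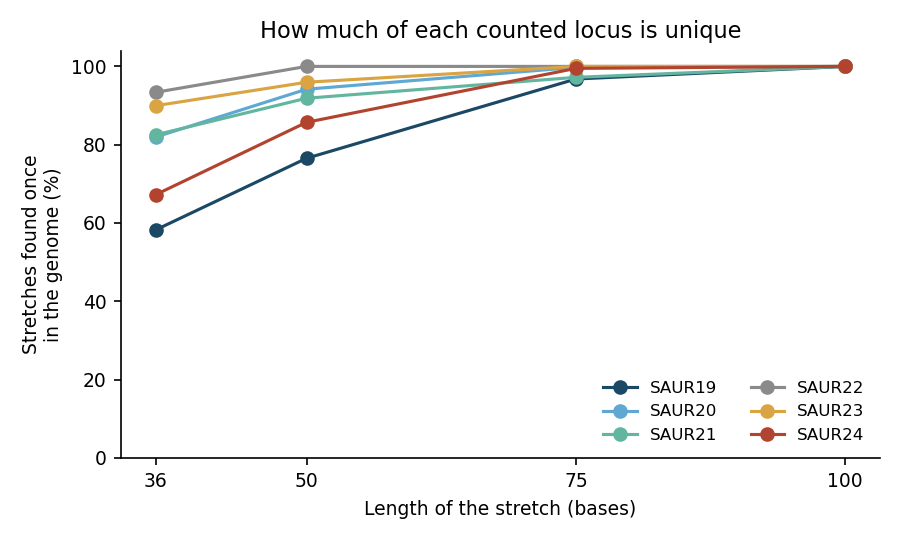
Percentage of stretches of 36, 50, 75 or 100 bases (horizontal axis) from each member's counted locus that occur a single time in the TAIR10.1 genome, 1 line per gene. Only exact matches were counted. SAUR19 starts lowest at 58.2%, SAUR22 highest at 93.4%, and all 6 reach 100% at 100 bases.

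None of the genes around the copies passed the authors' test, though several had values in the same direction. Of 11 neighbours, those between the members and the 3 on each side, 7 were tested and none was called, and their unadjusted p-values there were all above 0.05. Over all tested genes, 17.2% were called in either direction. Between the members lie AT5G18040 (HTT2) and AT5G18065 (HTT3), annotated as targets of trans-acting small RNAs. HTT2 had 2.89 FPKM in phyA-1 and 2.40 FPKM in wild type, and HTT3 had 2.33 FPKM in phyA-1 and 1.87 FPKM in wild type. DRT101 (AT5G18070), which lies between SAUR23 and SAUR24, had 7.41 FPKM in phyA-1 and 6.92 FPKM in wild type, a ratio of 0.09. The copies thus stood well above the genes interspersed with them, whose highest level was 7.41 FPKM.

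On the SAUR19 side, TRP1 (AT5G17990), a tryptophan biosynthesis gene, had 8.41 FPKM in phyA-1 and 8.51 FPKM in wild type. VDD (AT5G18000), a B3-type transcription factor gene that shares its locus with TRP1, had 1.32 FPKM in phyA-1 and 0.694 FPKM in wild type. Its ratio was 0.45 with the pseudocount and its plain FPKM fold 1.90, above the folds of all 6 members, at a low level and with q = 0.347 in the authors' deposited table. On the SAUR24 side, AT5G18090, annotated as an AP2/B3-like factor, had 0.653 FPKM in phyA-1 and 0.412 FPKM in wild type, a plain fold of 1.58 that the pseudocount shrinks to a ratio of 0.23. CSD3 (AT5G18100), a superoxide dismutase gene with a shared locus, had 23.9 FPKM in phyA-1 and 23.8 FPKM in wild type. Another 3 neighbours, AT5G18005, AT5G18015 and AT5G18085, are tRNA genes listed at 0 in both genotypes, and AT5G18037 was not tested.

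**Figure D3:**
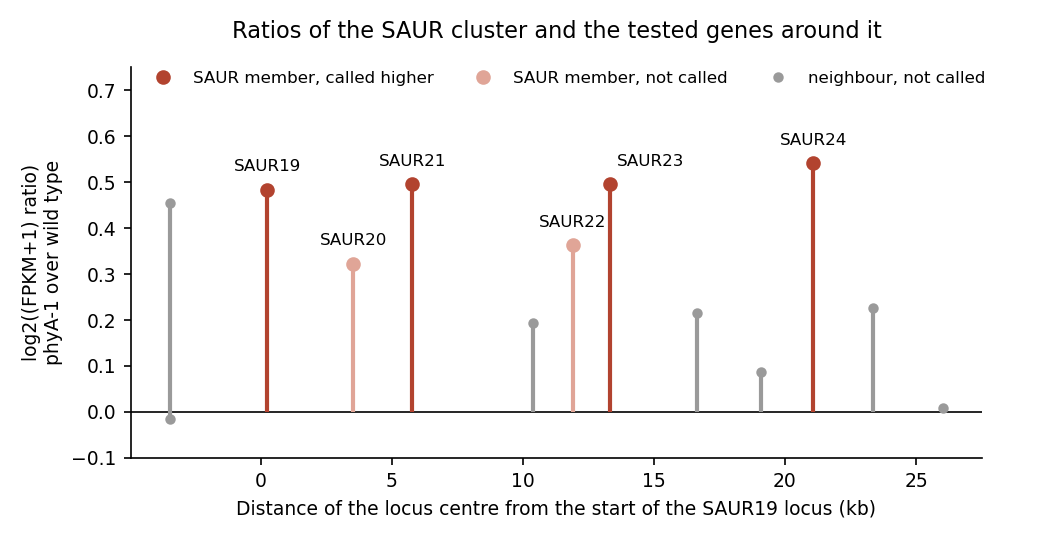
Ratio of each tested gene, log2((FPKM + 1) ratio) of phyA-1 over wild type, against the distance of its locus centre from the start of the SAUR19 locus in kb. Red points are called members, pale red points members not called, and grey points neighbours, none called. The 6 members reach 0.32 to 0.54, and of the neighbours VDD, which shares the leftmost position with TRP1, is highest at 0.45.

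The other SAUR genes held calls in both directions, more of them higher than lower. By symbol or synonym the annotation names 74 besides the 6, of which 70 were tested. Of these, 20 were called higher, 7 lower and 43 not called, with a median ratio of 0.15 beside 0.49 for the 6 members and 0.05 for all tested genes. Among all tested genes, 8.61% were called higher and 8.54% lower, so the 7 falls lay near the general share. The 20 rises were 28.6% of the tested relatives. One of the 74, AT5G01830, bears the symbol SAUR21 but is annotated as an ARM repeat protein. It was not called, and it is not the SAUR21 of the cluster. The 45 with a mean of at least 5 FPKM held all 20 of the higher calls and 4 of the lower ones, with a median ratio of 0.42. Higher calls were 44.4% of the 45. Among the 14234 tested genes at that level, 10.5% were called higher and 1505 genes lower.

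All 20 called rises among the other SAUR genes exceeded the largest ratio of the cluster, 0.54, the smallest of them at 0.55. A call favours large ratios, so this does not compare the relatives as a whole with the cluster. The 5 largest are named here. SAUR17 had 29.0 FPKM in phyA-1 and 10.12 FPKM in wild type, a ratio of 1.43. SAUR34 (ratio 1.17), SAUR58 (1.15), SAUR63 (1.13) and SAUR25 (1.13) followed. The largest called falls were those of SAUR77 (ratio -1.33), SAUR14 (-1.20), SAUR6 (-1.17), SAUR12 (-1.15) and SAUR76 (-0.69). SAUR14 had 18.0 FPKM in phyA-1 and 42.6 FPKM in wild type. The members of the SAUR19 group thus lay inside the range of the family. Against the median of 0.42 of the relatives with at least 5 FPKM, SAUR20 and SAUR22 stood lower and the other 4 members slightly higher.

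The 10 relatives closest in sequence moved mostly the same way. Ranked by mean identity of the coding sequence to the 6 members, the closest 10 other SAUR genes (63.0% to 79.0%) held 6 called higher, 1 called lower and 3 not called, with a median ratio of 0.59. The other 60 tested genes, at 57.9% or less, held 14 higher, 6 lower and 40 not called, with a median of 0.14. Among the closest 20, 8 were called higher, 1 lower and 11 not called, with a median of 0.40. The shares of all tested genes were 8.61% higher and 8.54% lower. All 10 closest had a mean of at least 5 FPKM, while some of the 60 lay below it. The relatives at that level had a median of 0.42. Identity and level were not separated here. Closest of all was SAUR27, with 79.0% identity, 11.5 FPKM in phyA-1 and 7.45 FPKM in wild type (ratio 0.56, q = 0.0185 in the authors' deposited table). SAUR28 (0.67), SAUR29 (0.57), SAUR13 (0.71, locus shared), SAUR25 (1.13) and SAUR4 (0.65) were also called higher. SAUR14, the tenth, was the one called lower. SAUR26, with 78.1% identity, had 15.1 FPKM in phyA-1 and 12.1 FPKM in wild type and was not called.

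Among named groups of relatives, SAUR25 to SAUR29 held 4 called higher of 5, with a summed level of 156 FPKM in phyA-1 and 92.3 FPKM in wild type. The tandem cluster SAUR61 to SAUR68 on chromosome 1 held 7 called higher of 8, with 126 FPKM in phyA-1 and 70.2 FPKM in wild type. SAUR14, SAUR16 and SAUR50 held no higher call and 1 lower, with 169 FPKM in phyA-1 and 210 FPKM in wild type. The shares over all tested genes were 8.61% higher and 8.54% lower. The SAUR19 to SAUR24 sum was the highest of these 4 groups in both genotypes, but the groups differ in number of genes. Without SAUR24, whose level is less comparable, the sum was 293 FPKM in phyA-1 and 216 FPKM in wild type. The median ratio of the 6 members, 0.49, stood beside 0.57 for SAUR25 to SAUR29 and 0.77 for SAUR61 to SAUR68. Whether the ratios of the groups differ was not tested.

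The tested SAUR genes whose levels lay nearest to the median of the 6, as the distance in log2(FPKM + 1) over the 2 pooled values, were SAUR29, SAUR10 and SAUR16. SAUR29 was at a distance of 0.23, with 56.5 FPKM in phyA-1 and 37.7 FPKM in wild type. SAUR10 was at 0.28, with 51.5 FPKM in phyA-1 and 49.0 FPKM in wild type. SAUR16 was at 0.30, with 56.0 FPKM in phyA-1 and 52.9 FPKM in wild type. SAUR10 and SAUR16 were near in level but were not called.

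**Figure D4:**
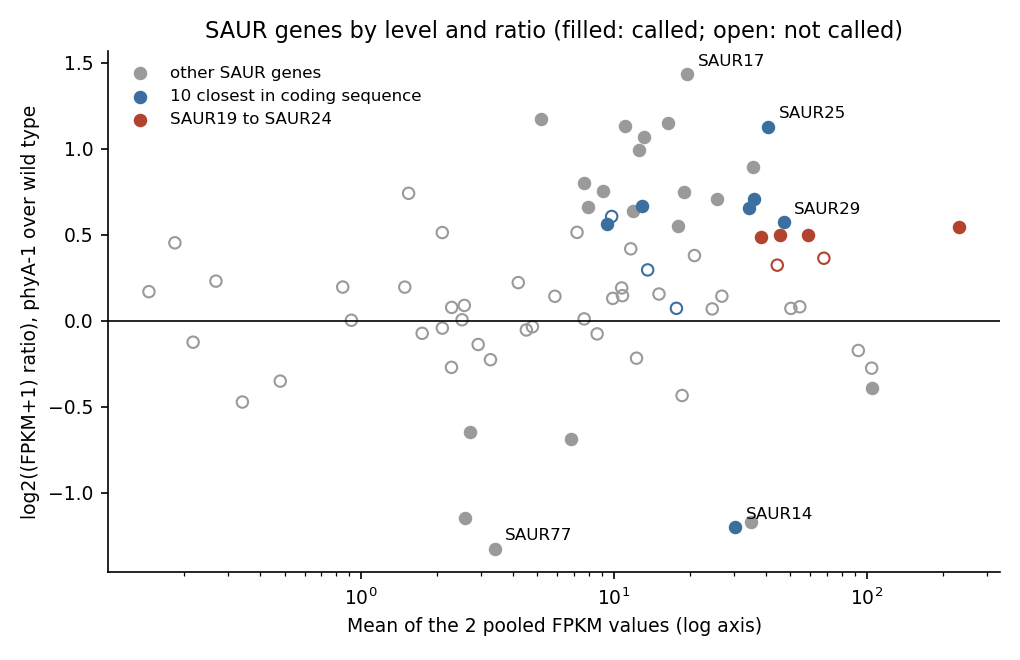
Ratio, log2((FPKM + 1) ratio) of phyA-1 over wild type, against the mean of the 2 pooled FPKM values (log axis) for SAUR19 to SAUR24 (red), the 10 SAUR genes closest in coding sequence (blue) and the other tested SAUR genes (grey). Filled points are called. The 6 members form a band at 0.32 to 0.54 to the right, within a family that spans -1.33 to 1.43.

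Genes that act with the SAUR19 group were taken from lists of the pathway. Of the 9 genes of the PP2C.D phosphatase family, which holds targets of SAUR19 proteins, 1 was called higher and 8 were not called, with a median ratio of 0.13. Which of the 9 are such targets was not examined. The one called was AT5G66080, with 21.2 FPKM in phyA-1 and 11.7 FPKM in wild type (ratio 0.80, q = 0.00045 in the authors' deposited table). Of the 11 plasma membrane proton pump genes, 10 were tested and none was called, by q or by an unadjusted p of 0.05, and AHA6 is listed at 0. The highest pump gene, AHA2 (AT4G30190), had 949 FPKM in phyA-1 and 780 FPKM in wild type, with q = 0.442 in the authors' deposited table. None of the 6 auxin receptor genes was called, by q or by an unadjusted p of 0.05, and the highest of them, TIR1, had 50.8 FPKM in phyA-1 and 55.5 FPKM in wild type. Over these 3 lists 1 of 25 tested genes was called, where 17.2% of all tested genes were called in either direction.

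Transcription factors known to act on growth SAUR genes split. Of 13, 2 were called higher, 4 lower and 7 not called, with a median ratio of -0.35. Among all tested genes 8.61% were called higher and 8.54% lower. PIF4 (AT2G43010), which activates elongation genes, had 5.94 FPKM in phyA-1 and 12.9 FPKM in wild type. PIF5 (AT3G59060), its close relative, had 10.7 FPKM in phyA-1 and 20.7 FPKM in wild type. HY5, the bZIP factor of photomorphogenesis, had 16.0 FPKM in phyA-1 and 77.9 FPKM in wild type, a ratio of -2.21. ARF8 (ratio -0.47) was also called lower, and the DELLA genes GAI (1.02) and RGA (AT2G01570, 0.42), repressors of gibberellin response, were called higher. Transcripts of both PIF4 and PIF5 were thus lower where those of the SAUR genes were higher. The other PIF genes listed, PIF3 (ratio 0.01), PIL5 (AT2G20180, -0.36) and PIF7 (-0.35), were not called.

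Of 8 other genes known as outputs of PIF factors and auxin, 5 were called higher, none lower and 3 not called, with a median ratio of 0.95, where 8.61% of all tested genes were called higher. YUC8 (ratio 0.22), YUC9 (0.33) and HFR1 (-0.14) were the 3 not called. IAA29, whose Aux/IAA product restrains auxin response, was at 17.2 FPKM in phyA-1 and 3.70 FPKM in wild type (ratio 1.95). HB-2 (AT4G16780), a shade-induced homeodomain gene, had 46.5 FPKM in phyA-1 and 19.4 FPKM in wild type (1.22). IAA19, an Aux/IAA gene of hypocotyl growth, had 176 FPKM in phyA-1 and 84.7 FPKM in wild type (1.04). PRE1, a growth-promoting HLH gene, had 48.3 FPKM in phyA-1 and 23.0 FPKM in wild type (1.04). The ratios of these 4 genes, named as the largest called of the list, each exceeded the highest of the SAUR19 group, 0.54.

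Marker lists of tissues give the context of a whole-seedling measure. Over all tested genes, 17.2% were called in either direction and 8.61% higher. None of the 4 epidermis markers was called, and 1, ATML1, had an unadjusted p of 0.05 or below, as 5889 of 22892 tested genes did. Their sum was 1121 FPKM in phyA-1 and 1258 FPKM in wild type, and the highest of them, PDF1, had 711 FPKM in phyA-1 and 863 FPKM in wild type. Of 4 root markers 1 was called, EXPA18, with 28.3 FPKM in phyA-1 and 20.9 FPKM in wild type, and their sum was 52.5 FPKM in phyA-1 and 42.7 FPKM in wild type. All 3 seed storage genes were called higher, CRA1 (2.08), SESA2 (1.77) and CRU3 (1.63), with a sum of 33.5 FPKM in phyA-1 and 7.62 FPKM in wild type. No marker of the 3 lists is at 0 in either genotype. The part of tissue makeup or of developmental stage in the SAUR values was not tested.

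**Figure D5:**
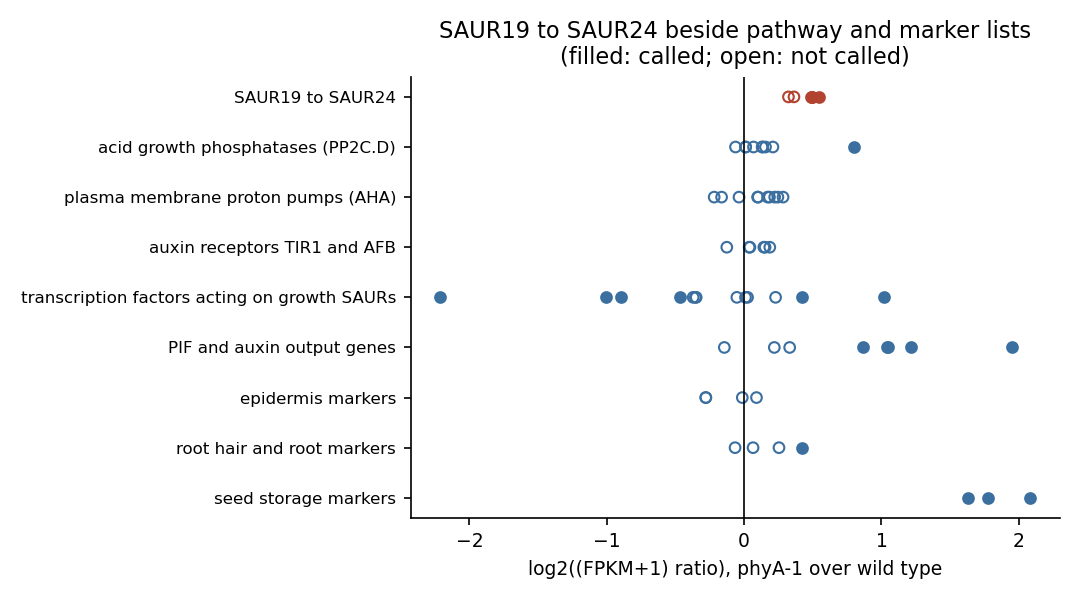
Ratio, log2((FPKM + 1) ratio) of phyA-1 over wild type, of each tested gene of SAUR19 to SAUR24 (red) and of 8 pathway and marker lists (blue), with called genes filled. The 6 SAUR genes lie at 0.32 to 0.54, proton pumps and auxin receptors have no filled point, and PIF and auxin output genes reach 1.95.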

How the data were processed

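Polyadenylated RNA of 6 libraries, 3 phyA-1 and 3 wild type, was measured. Reads were handled with Bowtie on TAIR10, per the submitters' processing notes. Versions, read length, strand and the tool that made the table were not given in the sources used here. What the authors deposited is 1 FPKM value per gene and genotype, pooled over replicates and scaled by transcript length. The authors' log2 ratio is wild type over phyA-1, and in 99.97% of tested genes with a finite ratio it equals that of the FPKM values within 0.001. Each gene also has the authors' test score, p-value and q-value, and the lowest p is 5e-05. The columns have no header and were identified by order and values.

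Ratios were computed as log2((FPKM + 1) ratio), phyA-1 over wild type, and calls are the deposited q of 0.05 or below. FPKM values are no counts and no value per library was used, so no test across libraries was run. P-values thus come from the authors' test, and genes are not replicates. Of 33557 identifiers, 32810 matched the TAIR10.1 annotation. Table coordinates are written 1-based. All 30589 loci compared overlapped their gene in TAIR10.1. Coding sequences were aligned globally with Biopython 1.88.

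The members and the 8 lists (58 genes) were chosen with earlier results of these data known. Genes named are the 6 members, their neighbours, the 5 largest called rises and falls and the 3 nearest in level among other SAUR genes, up to 4 called genes per list or else its highest, PHYA, and the relatives closest in sequence. ARF8, RGA, PIF3, PIL5, PIF7, ATML1, YUC8, YUC9, HFR1 and the groups of other SAUR genes were named after their values were seen. Alternatives changed the pseudocount, scaling, q threshold, adjustment and a filter on low levels. The adjustment was tested on simulated data.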

Additional observations from a re-analysis of the deposited data

Results flagged for a closer look

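AT5G18037, a gene between SAUR21 and SAUR22 that the authors left untested, is listed with 0.0969 FPKM in phyA-1 and at 0 in wild type. It stands here because it is a signal outside the tested genes that is above the wild-type value. With 0 in wild type it gives no plain fold, and its ratio of 0.13 with the pseudocount lies at a level too low to read.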

How the results depend on the processing

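All 6 members kept a positive ratio with pseudocounts of 0.1 and 5, with ratios centred on the median of tested genes (a shift of 0.05) and with a common sum that leaves out AT2G01021, a short locus of very high FPKM. With a q-value of 0.01 the calls of SAUR19 (ratio 0.48), SAUR21 (0.50) and SAUR23 (0.50) were lost, so that 1 member of 6, SAUR24, passed in place of 4, against 5% of all tested genes called higher. The root markers then held 0 calls in place of 1. A Benjamini-Hochberg adjustment of the deposited p-values over all tested genes kept the 4 calls (adjusted p of 0.00880 for SAUR24, 0.0152 for SAUR23, 0.0242 for SAUR21 and 0.0354 for SAUR19). The other SAUR genes called numbered 18 to 27 over the alternatives, one of which, leaving out AT5G01830, was chosen after seeing the data. No paired analysis was possible because the values are pooled per genotype, and no replicate could be left out. Depth per library is unknown, so precision is known only through the deposited p-values.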
